A study of Mus musculus with 12 samples.

Results

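The 10 genes described here belong to the Ly6 family cluster of mouse chromosome 15 and include Ly6a, the gene of the surface antigen Sca-1. The others are Ly6c1, Ly6c2, Ly6d, Ly6e, Ly6k, Slurp1, Lypd2, Psca and Lynx1. They are 10 of the 40384 gene rows of the expression table, found by their symbols, and they were chosen by the differences in level between the groups that these same libraries show. Their levels and differences are therefore given as a description, with no p. RNA-seq was made from 12 libraries in 4 groups of 3. MEF are fibroblasts from mid-gestation male embryos homozygous for 4F2A, a transgene that expresses the reprogramming factors Oct4, Sox2, Klf4 and c-Myc when doxycycline is given. D4 are cultures at day 4 with the control treatment OE-NC and D4_DUX cultures at day 4 with the treatment OE-DUX, overexpression of DUX, for which a treatment text shared by every sample gives 48 h. The iPSC libraries are labelled as an iPSC cell line. The protocol text is the same for every sample and gives LIF at 1000 U/mL and doxycycline at 2 µg/mL, so by the labels all groups share the 4F2A genotype and this culture text. The labels do not say whether the 3 libraries of a group are separate cultures, and p-values then measure only the spread between these libraries.

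Ly6 proteins carry a small finger-like fold held by disulfide bonds. Most are tied to the outer face of the cell membrane by a glycosylphosphatidylinositol (GPI) anchor, and a few, such as Slurp1, are secreted. Sca-1 and Ly-6C are widely used to sort mouse blood stem cells, mesenchymal progenitors, endothelium and monocytes, Psca, Ly6d and Slurp1 are known from stratified and glandular epithelia, and Lynx1 and Slurp1 bind nicotinic acetylcholine receptors.

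Values are FPKM, fragments scaled by exon length and by library total, so levels can be set beside each other between genes per unit of length. The depth recovered from the steps of the values was 22530000 to 28140000 counted fragments per library, and 14287 to 15834 genes reached 1 FPKM in a library. The overexpressed gene could not be seen in its group. Duxf3, the mouse Dux gene, was listed at 0 in all 3 libraries labelled D4_DUX and at most at 0.0247 FPKM in any library, where 3 fragments would give 0.0395 to 0.0494 FPKM. The groups are therefore named as labelled, and each direction given for D4_DUX rests on that label. All 10 genes passed the filter for the fit (FPKM of at least 1 in at least 3 libraries), 6 of them (Ly6c2, Ly6d, Slurp1, Lypd2, Psca and Ly6k) only through groups where they were high.

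Ly6c1 and Ly6c2 encode the forms of the Ly-6C antigen and are near-identical copies. Their coding sequences are shown because reads from one can fall on the other, which bears on every value of this pair. In GENCODE M21 (GRCm38) both lie on the minus strand, at chr15:75045402-75048511 and chr15:75108543-75111667, and each has 396 coding bases. Bases 1 to 300 are printed 5′ to 3′ in the sense of the gene, and capitals mark the positions that differ, 7 in this stretch and 9 in all.
Ly6c1: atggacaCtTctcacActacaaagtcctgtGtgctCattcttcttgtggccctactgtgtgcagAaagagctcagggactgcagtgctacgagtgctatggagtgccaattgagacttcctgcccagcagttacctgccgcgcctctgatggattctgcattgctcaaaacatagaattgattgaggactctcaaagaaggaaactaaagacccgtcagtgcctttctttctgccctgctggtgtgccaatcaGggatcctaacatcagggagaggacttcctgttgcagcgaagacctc
Ly6c2: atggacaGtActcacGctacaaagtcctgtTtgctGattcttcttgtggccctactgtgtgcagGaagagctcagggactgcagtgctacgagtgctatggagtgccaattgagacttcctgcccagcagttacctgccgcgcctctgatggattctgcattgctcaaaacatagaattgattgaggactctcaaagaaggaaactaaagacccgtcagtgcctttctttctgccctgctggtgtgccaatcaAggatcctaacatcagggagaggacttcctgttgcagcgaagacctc
The copies were identical at 387 of 396 positions (97.7%), while Ly6a was 82.0% identical to Ly6c1 and 81.7% to Ly6c2. Over whole transcripts the overlap was smaller. Of the 1756 windows of 100 bases in Ly6c1 transcripts, 159 (9.1%) occurred exactly in Ly6c2 and 19 (1.1%) in Ly6a. Of the 2737 windows of Ly6c2, 159 (5.8%) occurred in Ly6c1. The sources used here do not say how shared fragments were assigned, so the values of both genes are uncertain. These shares of windows do not bound the uncertainty of Ly6c2, because Ly6c1 had far more fragments. In D4_DUX, Ly6c1 had 9260 to 10900 fragments a library and Ly6c2 228 to 321. What part of the Ly6c2 values, and of their differences between groups, came from Ly6c1 fragments cannot be told.

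The promoters of this pair diverge more than the coding bases. They are shown because Ly6c1 and Ly6c2 differed in level in every library. The 250 bases before 1 annotated start of each gene are from the RefSeq table of GRCm38.p6. They lie at chr15:75048838-75049087 for Ly6c1 and chr15:75111972-75112221 for Ly6c2, both on the minus strand. Capitals mark the letters TATAAA, searched on both strands.
Ly6c1: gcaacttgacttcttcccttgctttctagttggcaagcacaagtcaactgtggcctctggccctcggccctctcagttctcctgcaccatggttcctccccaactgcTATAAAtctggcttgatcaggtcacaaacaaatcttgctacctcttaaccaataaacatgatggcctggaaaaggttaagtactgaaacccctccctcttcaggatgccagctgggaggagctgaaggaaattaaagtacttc
Ly6c2: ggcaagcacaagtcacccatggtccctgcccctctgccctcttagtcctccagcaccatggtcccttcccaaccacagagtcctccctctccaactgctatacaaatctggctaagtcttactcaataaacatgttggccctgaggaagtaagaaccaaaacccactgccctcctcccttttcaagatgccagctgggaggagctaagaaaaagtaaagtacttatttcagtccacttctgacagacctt
Where the windows overlap, 164 of 228 aligned positions (71.9%) were identical, 52 were substituted and 12 were gaps. TATAAA was present in the printed Ly6c1 window and not in the printed Ly6c2 window. It stands near the middle of the Ly6c1 window, not close to the annotated start, and whether it acts in transcription was not tested. Of all 27025 promoters of this length, 13% hold it. The letters of the GAS element, TTCNNNGAA (7.2% of promoters), and of the AP-1 site, TGANTCA (6.9%), were in neither printed window. The printed Ly6c1 window held 1 CpG and that of Ly6c2 0, where the median of all windows was 6 CpG. Each gene has a second annotated start, with windows at chr15:75048664-75048913 (Ly6c1) and chr15:75111938-75112187 (Ly6c2), each with 0 CpG. Those windows were not searched for the letters, so the contrasts above hold for the printed windows only. The promoter table held 2 of the 10 genes.

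Ly6a was the most abundant of the 10 genes in both day 4 groups. Its gene (ENSMUSG00000075602, chr15:74994877-74998031, minus strand) was at 44.2, 40.7 and 53.6 FPKM in MEF and at 549, 593 and 521 FPKM in D4. The libraries labelled D4_DUX were at 1010, 1029 and 1073 FPKM, and the iPSC libraries at 42.4, 31.8 and 31.2 FPKM. All D4_DUX values lay above all D4 values, and all D4 values above MEF and iPSC, while the ranges of MEF and iPSC overlapped. Among the 40384 rows Ly6a ranked 811 to 1070 in MEF, 54 to 61 in D4, 19 to 21 in D4_DUX and 1234 to 1778 in iPSC. The mean of D4 (554 ± 36.5, SD, n = 3) was 12 times that of MEF (46.2 ± 6.65), a difference of 3.57 (SE 0.12) on the log2(FPKM + 1) scale, on which all differences below are given. The mean of D4_DUX (1037 ± 32.2) was 1.87 times that of D4, a difference of 0.90 (SE 0.12). In bulk RNA a larger share of Ly6a-expressing cells and more Ly6a RNA per cell cannot be told apart, and the same holds for every gene below.

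**Figure D1:**
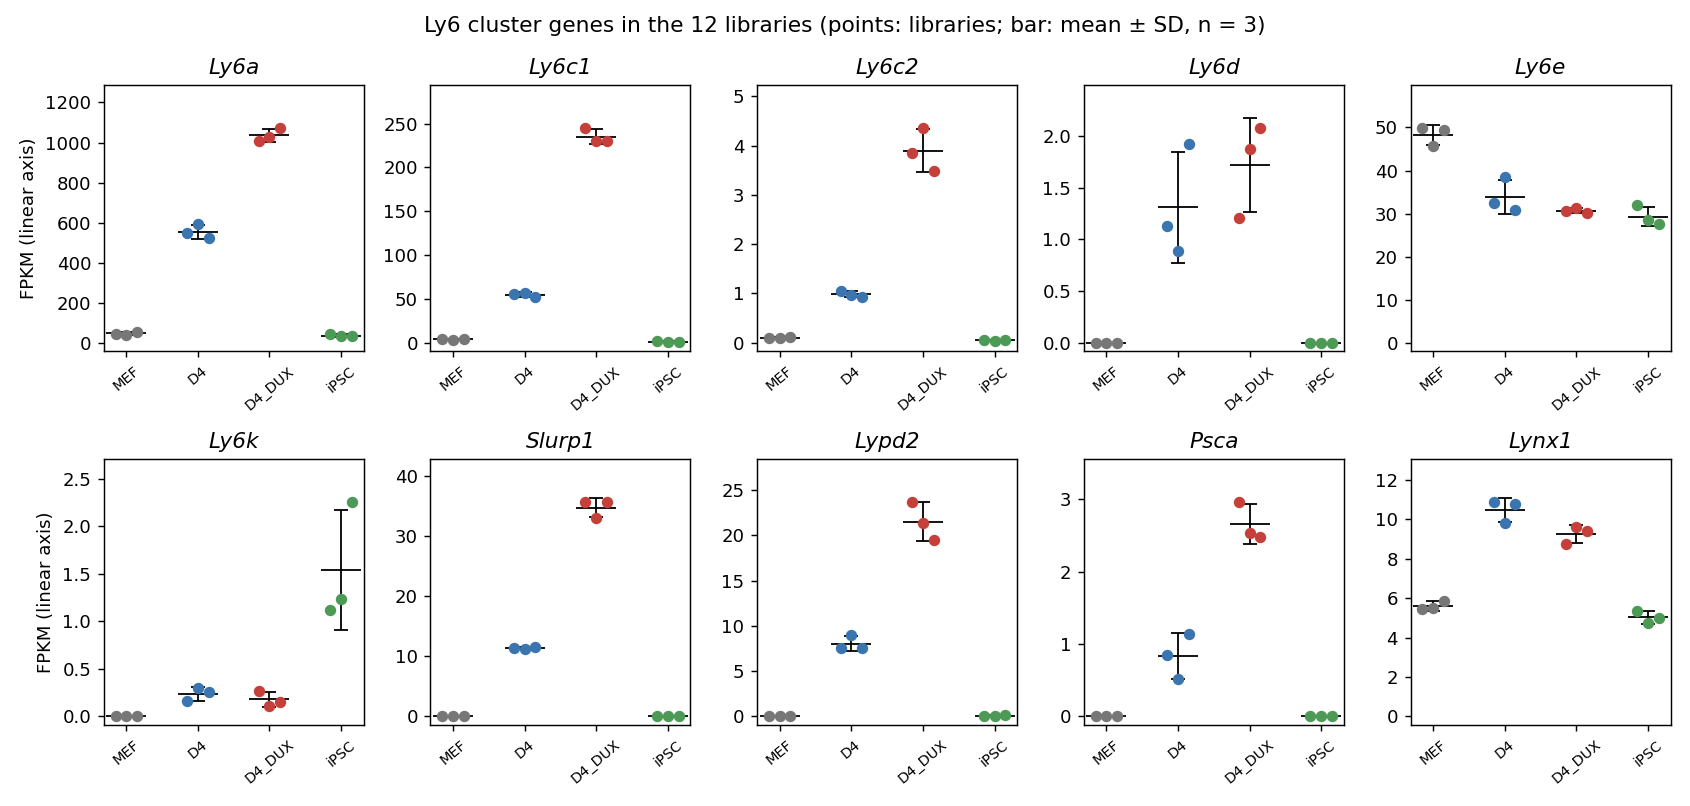
FPKM of the 10 Ly6 cluster genes in each library, with 1 panel per gene, a linear axis of its own in each panel, points for libraries and bars for the mean and SD of 3 libraries. Ly6a, Ly6c1, Ly6c2, Slurp1, Lypd2 and Psca are highest in all 3 D4_DUX libraries, Ly6e is highest in MEF and Ly6k in iPSC.

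Ly6c1 (ENSMUSG00000079018, chr15:75044018-75048830, minus strand) followed the same order with a wider step within day 4. It was at 3.70, 3.52 and 4.56 FPKM in MEF and at 56, 56.8 and 52 FPKM in D4. The D4_DUX libraries were at 245, 230 and 230 FPKM and the iPSC libraries at 1.69, 0.934 and 1.35 FPKM. No group overlapped another. The D4_DUX mean (235 ± 8.79) was 4.28 times the D4 mean (55.0 ± 2.58), a log2 difference of 2.08 (SE 0.11), the widest of the 10 genes in that comparison, and the D4 mean was 14.0 times the MEF mean (3.92 ± 0.554).

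Ly6c2 (ENSMUSG00000022584, chr15:75108158-75111970, minus strand) was far lower in level, and fragments shared with Ly6c1 cannot be set apart in its values. Its MEF values were 0.0917, 0.0919 and 0.114 FPKM, from 5.7 to 8.8 fragments a library, and its iPSC values of 0.0468, 0.0403 and 0.0521 FPKM were at the level of 3 fragments. D4 was at 1.05, 0.974 and 0.937 FPKM and D4_DUX at 3.85, 4.36 and 3.48 FPKM. The ratio of the D4_DUX mean to the D4 mean was 3.95, close to that of Ly6c1, and the log2 difference was 1.30 (SE 0.06), which is smaller because 1 is added before the logarithm.

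The ratio of 2 genes within a library does not depend on the total by which that library was scaled. FPKM of Ly6a over that of Ly6c1 was 11.8 ± 0.198 in MEF and 10.1 ± 0.327 in D4. It was 4.11, 4.47 and 4.65 in D4_DUX and 25.1, 34 and 23.2 in iPSC. The 4 groups did not overlap, so the balance between Sca-1 and Ly-6C transcripts was shifted towards Ly6c1 in every D4_DUX library. Ly6c1 over Ly6c2, in which the shared fragments of the pair cannot be set apart, behaved otherwise. It was 55.8 ± 2.38 in D4 and 60.9 ± 7.21 in D4_DUX, with overlapping ranges, against 39.5 ± 1.09 in MEF and 28.3 ± 6.78 in iPSC, where few fragments of Ly6c2 were counted.

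**Figure D2:**
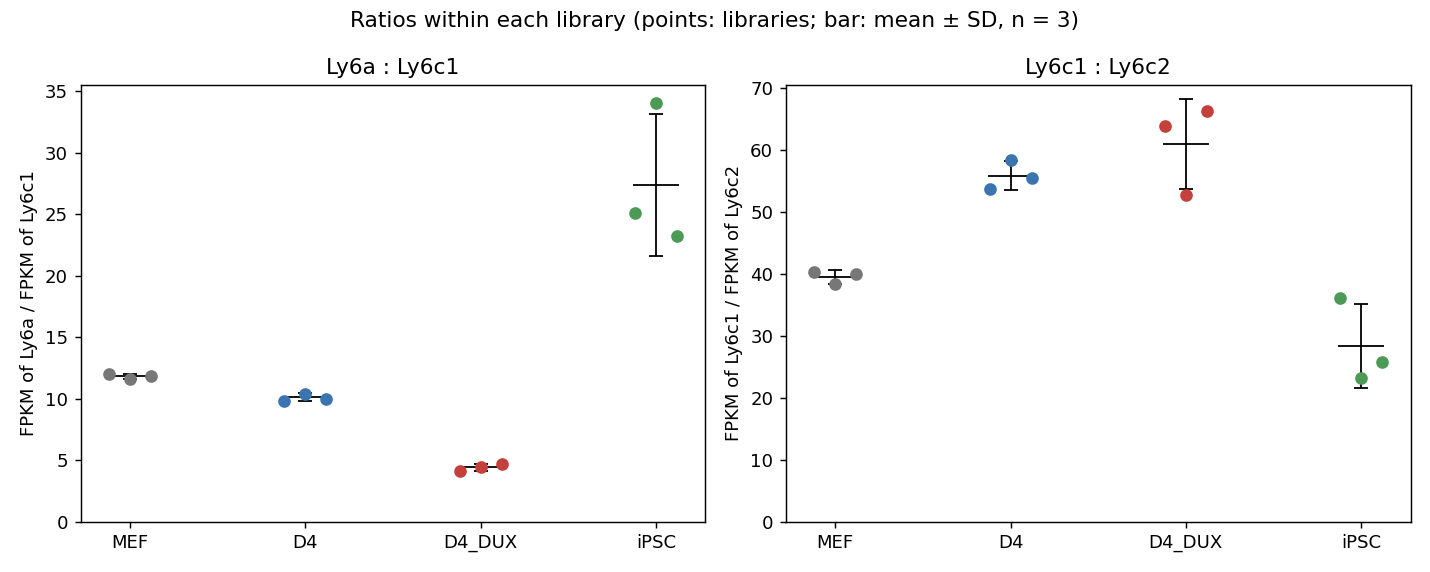
Ratio of FPKM within each library, Ly6a over Ly6c1 on the left and Ly6c1 over Ly6c2 on the right, with points for libraries and bars for the mean and SD of 3 libraries. The left ratio is lowest in D4_DUX (mean 4.41) and highest in iPSC (mean 27.4), while on the right the D4 and D4_DUX points overlap.

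Slurp1, which encodes a protein secreted by keratinocytes, was almost confined to the day 4 groups among these libraries. Slurp1 (ENSMUSG00000022596, chr15:74724318-74728034, minus strand) was at 11.4, 11.2 and 11.6 FPKM in D4 and at 35.7, 33.0 and 35.8 FPKM in D4_DUX. In MEF and iPSC it was at most at 0.013 FPKM, below the 0.0363 to 0.0454 FPKM of 3 fragments. The D4_DUX mean was 3.05 times the D4 mean, a log2 difference of 1.53 (SE 0.04). Of its exon bases, 322 (11%) are shared with Them6 on the opposite strand, and with the counting strand not given, reads of the pair cannot be told apart there.

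Lypd2 (ENSMUSG00000022595, chr15:74732247-74734329, minus strand), the neighbour of Slurp1, was at 7.57, 9.04 and 7.55 FPKM in D4 and at 23.7, 21.4 and 19.5 FPKM in D4_DUX. It was listed at 0 in all MEF libraries and at 0.0918, 0 and 0.112 FPKM in iPSC, below the level of 3 fragments (0.157 to 0.196 FPKM). Both day 4 groups lay above MEF and iPSC, and D4_DUX above D4, with a ratio of means of 2.67 and a log2 difference of 1.31 (SE 0.08). Slurp1 over Lypd2 within a library was 1.43 ± 0.166 in D4 and 1.63 ± 0.183 in D4_DUX, with overlapping ranges.

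Psca, the prostate stem cell antigen gene (ENSMUSG00000022598, chr15:74714839-74717069, plus strand), was at 0.852, 0.515 and 1.14 FPKM in D4 and at 2.97, 2.53 and 2.48 FPKM in D4_DUX, from 11 to 24.5 and from 51.0 to 68.0 fragments a library. It was listed at 0 in MEF and iPSC, where 3 fragments would give 0.124 to 0.155 FPKM. Every D4_DUX library was above every D4 library (ratio of means 3.18, log2 difference 1.01, SE 0.10).

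Ly6d, a marker of stratified epithelium and of early B-lineage cells (ENSMUSG00000034634, chr15:74762056-74763620, minus strand), was also listed at 0 in MEF and iPSC but did not separate the day 4 groups. It was at 1.13, 0.893 and 1.92 FPKM in D4 and at 1.21, 1.88 and 2.08 FPKM in D4_DUX, and these ranges overlapped. The log2 difference was 0.24 (SE 0.15), from 16.5 to 35.5 fragments a library in D4 and 24.0 to 37.5 in D4_DUX. Ly6k, known from testis (ENSMUSG00000044678, chr15:74796874-74799986, minus strand), had another order, with iPSC highest at 1.12, 1.24 and 2.26 FPKM. It was at 0.161, 0.304 and 0.255 FPKM in D4 and at 0.272, 0.112 and 0.151 FPKM in D4_DUX, 2.5 to 6.3 fragments a library, and at 0 in MEF. The day 4 groups overlapped, and a difference between them was not detectable at this depth. Of the Ly6k exon bases, 395 (47.6%) are shared with Gm17189, an antisense gene, and reads of the pair cannot be told apart there without strand.

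Ly6e and Lynx1 were present in every library. Ly6e, whose protein restricts the entry of several viruses (ENSMUSG00000022587, chr15:74955051-74959905, plus strand), was at 49.9, 45.6 and 49.5 FPKM in MEF and at 32.5, 38.4 and 30.8 FPKM in D4. D4_DUX was at 30.6, 31.2 and 30.2 FPKM and iPSC at 31.9, 28.5 and 27.6 FPKM. MEF lay above the other groups, D4 overlapped D4_DUX, and D4_DUX overlapped iPSC. Ly6e is adjacent to Ly6a among the 10 genes, and Ly6a over Ly6e within a library was 0.954 ± 0.112 in MEF, 16.4 ± 0.839 in D4, 33.8 ± 1.46 in D4_DUX and 1.19 ± 0.120 in iPSC.

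Lynx1 (ENSMUSG00000022594, chr15:74747852-74753046, minus strand) was at 5.46, 5.48 and 5.88 FPKM in MEF, 10.9, 9.81 and 10.8 FPKM in D4, 8.73, 9.63 and 9.41 FPKM in D4_DUX and 5.36, 4.73 and 4.99 FPKM in iPSC. Both day 4 groups were above MEF and iPSC, and D4_DUX lay just below D4 without overlap (ratio of means 0.881, log2 difference -0.17, SE 0.06). Lynx1 sits between Lypd2 and Ly6d, which were near 0 outside day 4.

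Summed over the 10 genes, FPKM was 104 ± 9.11 in MEF, 677 ± 42.0 in D4, 1377 ± 25.2 in D4_DUX and 72.5 ± 8.73 in iPSC. Ly6a made up 42.6 to 47.2% of that sum in MEF, 81.6 to 82.3% in D4, 74.1 to 76.3% in D4_DUX and 46.2 to 51.3% in iPSC. The sum was 0.439 to 0.457% of all FPKM in D4_DUX libraries and 0.209 to 0.227% in D4 libraries.

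The comparison of the treatments at day 4 asks what differs with OE-DUX. In the limma fit over all genes (Benjamini-Hochberg adjusted p under 0.05), 6 of the 10 genes were called higher in D4_DUX than in D4 (Ly6a, Ly6c1, Ly6c2, Slurp1, Lypd2 and Psca), 1 lower (Lynx1) and 3 neither. The same fit called 35.4% of the 17114 genes tested, 20.1% higher and 15.4% lower. Groups did not overlap for 6 genes above and 1 below, against 50.5% of all genes tested, 28.5% above and 21.9% below. The median log2 difference of the 10 genes was 0.96 and that of all genes tested 0.02. Since the 10 genes were chosen on such differences, nothing is read from these counts.

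Between D4 and MEF, the comparison of day 4 with the starting fibroblasts, 8 of the 10 genes were called higher, 1 lower (Ly6e) and 1 neither (Ly6k), with a median log2 difference of 1.02 against 0.03 over all genes tested. The fit called 61.8% of all genes, 34.2% higher and 27.6% lower. All 10 genes were without overlap, 9 above and 1 below, against 66.5% of all genes tested, 36.7% above and 29.8% below. These comparisons share the D4 libraries, as does that of iPSC with D4 below, so their values are not independent of each other.

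In iPSC, 9 of the 10 genes had a lower mean than in D4, and Ly6k a higher one. Against MEF, the fit called 1 of the 10 genes higher (Ly6k), 4 lower (Ly6a, Ly6c1, Ly6e and Lynx1) and 5 neither, with 82.2% of all genes called, 51.0% higher and 31.2% lower. Without iPSC replicate 2 or without iPSC replicate 3 the count of called genes was 3. Groups did not overlap for 1 gene above and 4 below, against 82.4% of all genes tested, 51.1% above and 31.3% below. Against D4, 1 was called higher (Ly6k) and 9 lower, with 82.4% of all genes called, 48.5% higher and 33.9% lower, and 1 gene lay above and 8 below without overlap, against 48.6% and 33.8% of all genes tested. The Ly6a mean in iPSC was 0.0634 of that in D4 (log2 difference -3.95, SE 0.12) and the Ly6c1 mean 0.0241 (-4.60, SE 0.11). Medians were -0.04 against MEF and -1.06 against D4, beside 0.21 and 0.16 over all genes tested.

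The 10 genes span 397 kb (chr15:74714839-75111970), 8 on the minus and 2 on the plus strand. Within day 4, genes with wide differences (Slurp1, Lypd2, and then Ly6a, Ly6c1, Ly6c2) stood beside genes with small ones (Lynx1, Ly6k, Ly6e). Of 15 other Ly6-like genes within 500 kb, 14 were in the table and 12 of these stayed under 1 FPKM in every library. Ly6l was not analysed here. The 1 gene that was tested, Gm10238, is an unprocessed pseudogene that was listed at 0 in MEF and iPSC and had a mean of 0.819 FPKM in D4 and 2.94 FPKM in D4_DUX. It reached 1 FPKM in the 3 D4_DUX libraries alone (2.61, 3.10 and 3.12 FPKM, against at most 0.979 FPKM in D4), which decided that it was tested, so no p is given for it. These values rest on 6.0 to 9.0 fragments a library in D4 and 28.3 to 34 in D4_DUX. None of its 309 windows of 100 bases occurred in another gene of the region (0 shared).

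Of 7 flanking genes, which are not of the Ly6 family, 3 were tested. Them6, whose exons overlap those of Slurp1, was at 3.10 ± 0.398 FPKM in D4 and 3.54 ± 0.193 FPKM in D4_DUX (log2 difference 0.15, limma adjusted p = 0.257), beside 1.53 for Slurp1, and the difference between these 2 values was not tested. Jrk was higher in D4_DUX (1.89 against 1.40 FPKM, log2 difference 0.27, limma adjusted p = 0.011), and Adgrb1 had means of 0.0636 FPKM in D4 and 0.0865 FPKM in D4_DUX. Against MEF, Them6 was higher in D4 (1.05, limma adjusted p = 2.06e-06).

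**Figure D3:**
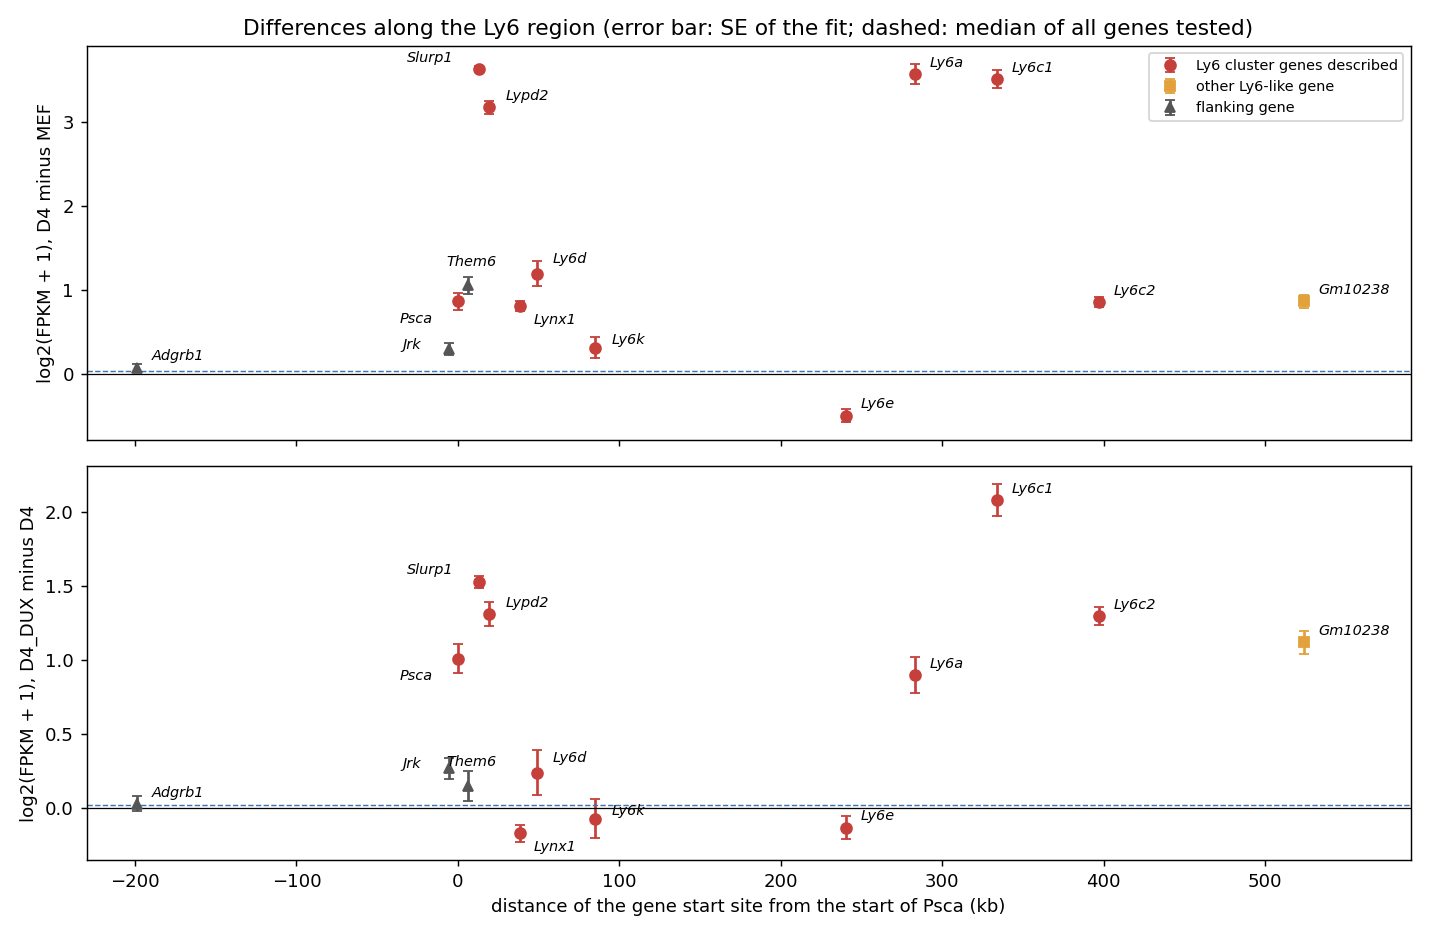
Difference in log2(FPKM + 1) of each tested gene of the region against the distance of its start site from that of Psca in kb, D4 minus MEF above and D4_DUX minus D4 below, with bars for the SE of the fit and a dashed line at the median of all genes tested. Circles are the 10 Ly6 cluster genes, the square is Gm10238 and triangles are flanking genes. Ly6c1 is the highest point of the lower panel at 2.08, where Lynx1, Ly6k and Ly6e lie at -0.17, -0.07 and -0.13.

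The genes most like Ly6a over the 12 libraries, by Pearson's r of log2(FPKM + 1) among all genes tested and with the 10 left out, lie on other chromosomes. They were 2010111I01Rik and Sprr2b (r = 0.998 each), Sdsl (0.998), Sqor (0.997) and Tmem151a (0.997). Sprr2b, a small proline-rich protein gene of the cornified envelope, had means of 0.386 FPKM in MEF, 12.1 FPKM in D4, 23.0 FPKM in D4_DUX and 0.0957 FPKM in iPSC. Its D4_DUX mean was 1.89 times its D4 mean, beside 1.87 for Ly6a. Sqor, a mitochondrial sulfide-oxidizing enzyme, shared the order with small steps (5.70, 8.51, 9.38 and 5.33 FPKM), since r does not read the size of a step.

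Among the genes most like Ly6c1 were Akr1c14, Map1lc3b and Eef2k (r = 0.997 each) and Gas2l1 (0.996). Akr1c14, an aldo-keto reductase gene, had means of 0.322 FPKM in MEF, 2.48 FPKM in D4, 4.46 FPKM in D4_DUX and 0.0395 FPKM in iPSC. Eef2k, the kinase of elongation factor 2, had 5.16, 10.6, 16.9 and 3.82 FPKM. Among the 10 genes, r with Ly6a was 0.992 for Slurp1, 0.990 for Lypd2, 0.988 for Ly6c1, 0.963 for Ly6d, 0.948 for Lynx1, 0.930 for Psca, 0.922 for Ly6c2, -0.33 for Ly6e and -0.434 for Ly6k. These values describe 12 libraries that share 4 conditions, so libraries of a group are not independent points.

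Ly6a, Ly6c1 and Ly6e are known to respond to interferon in several cell types. Of 44 interferon response genes tested, 20 rose and 1 fell in D4_DUX against D4, with a median log2 difference of 0.44. Beside this and the list counts below, the fit called 20.1% of all genes tested higher and 15.4% lower in that comparison. These shares were 34.2% and 27.6% in D4 against MEF and 51.0% and 31.2% in iPSC against MEF. Without D4 replicate 1, and likewise without D4 replicate 3, 13 of the 44 were called higher, and without D4 replicate 2, 28. D4 replicate 2 was above the other D4 libraries in some of these genes: Ifit3 was at 11.4, 27.1 and 9.14 FPKM and Isg15 at 48.2, 93.6 and 44.8 FPKM in D4. Among the D4 libraries, Ly6a, Ly6c1, Ly6e, Lypd2 and Ly6k were also highest in replicate 2, while Slurp1, Ly6d, Psca and Lynx1 were lowest in it. Oas2, an antiviral oligoadenylate synthetase, rose by 1.67 (limma adjusted p = 6.52e-05) and Oas1a by 1.02 (0.000754), Stat2, a signal transducer of type I interferon, by 0.86 (0.000925) and Xaf1 by 1.03 (0.00104). Between D4 and MEF the list went the other way for most called genes, with 5 higher and 24 lower and a median of -0.64, while Ly6a and Ly6c1 were 3.57 and 3.51 higher in D4. Ly6e was lower in D4 than in MEF and not called between the day 4 groups (-0.13, SE 0.08). Whether interferon had a part in the values of the Ly6 genes was not tested.

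Of 32 tested genes that build the GPI anchor or transfer it to proteins, 11 rose, 1 fell and 20 were not called in D4_DUX against D4, with a median of 0.11. This count is not stable: it was 6 without D4 replicate 1, 7 without D4 replicate 2 or D4_DUX replicate 2, and 5 without D4_DUX replicate 3. Dpm2, a subunit of dolichol phosphate mannose synthase, rose by 0.38 (limma adjusted p = 1.41e-05), and Piga, a subunit of the enzyme of the first step of anchor synthesis, by 0.34 (0.000362). Pigh, of the same enzyme, rose by 0.51 (0.000889) and Mppe1 by 0.33 (0.00408). In D4 against MEF 15 rose and 4 fell, with a median of 0.16. In iPSC against MEF 17 rose and 9 fell, near the shares of all genes tested (51.0% higher and 31.2% lower). The median was 0.15 beside 0.21 over all genes, and Pigl, the deacetylase of the second step, rose by 2.80 (limma adjusted p = 1.3e-10). That count of genes that rose was 9 and that of genes that fell 15 after quantile normalization.

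The wider LY6/uPAR family outside the region was mostly at low levels. Of 23 listed, 21 were in the table, 16 of them under 1 FPKM in every library, and 5 were tested. Between D4_DUX and D4, 1 of the 5 was called, Cd59b, a GPI-anchored inhibitor of complement, which fell by 0.27 (limma adjusted p = 0.0184). That call was lost without D4 replicate 2 (adjusted p = 0.0544), D4_DUX replicate 1 (0.0565) or D4_DUX replicate 2 (0.0678). Between D4 and MEF limma called 0 of the 5 (1 at an unadjusted p under 0.05), and 1 was called lower without D4 replicate 2. In iPSC against MEF all 5 rose, with a median of 1.10. Ly6g6e rose by 2.80 and Ly6g6d by 1.97. Ly6g6e, Ly6g6d and Cd59b reached 1 FPKM in the 3 iPSC libraries alone, which decided that they were tested. No p is therefore given for them in this comparison, and nothing is read from the count of genes that rose. That count was 1 without iPSC replicate 1 or 2 and 2 without iPSC replicate 3.

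Markers of cell types that are known to carry Sca-1 or Ly-6C were read in the same libraries. Where they differed between the groups, in either direction, their part in the results above was not tested. All 18 fibroblast and mesenchymal progenitor markers were tested. Their summed FPKM was 6285 to 6398 in MEF, 4074 to 4201 in D4, 3534 to 3594 in D4_DUX and 878 to 1121 in iPSC, and 0 of them were listed at 0 in all 3 libraries of a group. In D4_DUX against D4, 4 rose and 9 fell. Cd34 and Pi16, which mark Sca-1-positive mesenchymal progenitors, each rose by 0.69 (limma adjusted p = 1.01e-05 and 3.12e-06), while Postn, a matrix protein, fell by 1.84 (3.24e-06). Other markers of such progenitors went down: Pdgfra fell by 0.81 (limma adjusted p = 3.54e-05) and Dpp4 fell by 0.38 (0.000782), from 2.35 to 1.58 FPKM, with its highest mean in iPSC at 22.6 FPKM. Cd34 had means of 2.03 FPKM in MEF, 79.1 FPKM in D4, 128 FPKM in D4_DUX and 4.84 FPKM in iPSC, the same order of the day 4 groups as Ly6a.

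Monocyte and macrophage markers, the cell type for which Ly-6C is best known, went the other way. Of 18, 17 were tested, and 16 fell and 1 was not called in D4_DUX against D4, with a median of -1.18. Their summed FPKM was 1720 to 1762 in MEF, 198 to 236 in D4, 51.1 to 52.1 in D4_DUX and 179 to 220 in iPSC. Lyz2, macrophage lysozyme, fell by 2.22 (limma adjusted p = 2.02e-07), Itgam by 1.30 (3.46e-07), C1qa by 1.59 (6.75e-07) and Cd68 by 1.18 (2.52e-06). Ccr2, the receptor that marks Ly-6C-high monocytes, was at most at 0.0185 FPKM in any of the 12 libraries. Ly6c1 and Ly6c2 were highest in D4_DUX, where the sum of these markers was lowest. Lyz2 had a mean of 31.0 FPKM there, and not every marker had its lowest mean in D4_DUX. Whether such cells had a part in the Ly6c1 and Ly6c2 values was not tested. Of 16 granulocyte and lymphocyte markers, 15 were in the table, 12 of them under 1 FPKM in every library, and limma called 0 of the 2 tested in D4_DUX against D4 (0 at an unadjusted p under 0.05).

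Squamous epithelium markers, from a tissue in which Slurp1 and Ly6d are known, were higher at day 4. Of 24, 15 were tested and 9 stayed under 1 FPKM in every library. Their summed FPKM was 4.23 to 4.71 in MEF, 168 to 175 in D4, 246 to 278 in D4_DUX and 84.2 to 107 in iPSC. In D4 against MEF 13 rose and 2 were not called, with a median of 2.32. In D4_DUX against D4 11 rose and 2 fell, with a median of 0.35, and the count higher was 6, 7 and 6 without D4_DUX replicate 1, 2 and 3. Aqp3, a water and glycerol channel, rose by 1.29 (limma adjusted p = 5.36e-07), from 21.9 to 55.0 FPKM, with 32.1 FPKM in iPSC. Krt14, a keratin of the basal layer, rose by 1.25 (limma adjusted p = 2.78e-06). Cldn4 rose by 0.69 (limma adjusted p = 0.000221), from 0.171 to 0.876 FPKM, with its highest mean in iPSC at 24.7 FPKM. The 2 markers that fell in D4_DUX against D4 were Ivl and Krt13. Ivl fell by 0.64 (limma adjusted p = 0.00113), from 5.7 FPKM in D4 to 3.27 FPKM in D4_DUX. Krt13 fell by 0.36 (limma adjusted p = 0.000636), to a mean of 7.56 FPKM in D4_DUX, 0.756 of its D4 mean. Krt6a rose by 0.76. Krt6a and Krt17 reached 1 FPKM in the 3 D4_DUX libraries alone, which decided that they were tested, so no p is given for them. Krt14 had means of 0.0599 FPKM in MEF, 20.3 FPKM in D4, 49.6 FPKM in D4_DUX and 0.0925 FPKM in iPSC, its partner Krt5 only 0.168 FPKM in D4 and 0.488 FPKM in D4_DUX, and Trp63, the factor that defines the basal layer, 0.0723 and 0.143 FPKM. In MEF, 8 of the 24 markers were listed at 0 in all 3 libraries (Krt1, Krt4, Krt13, Krt6a, Krt6b, Krt16, Dsg3 and Sprr1b).

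Endothelium is another source of Ly6a and Ly6c1 in mouse tissue. Of 16 markers, 7 were tested, and 2 rose and 2 fell in D4_DUX against D4. Tek, an angiopoietin receptor, rose by 0.62 (limma adjusted p = 2.01e-05), while Flt1 fell by 0.94 (2.42e-06) and Plvap by 0.51 (0.000433). Esam rose by 0.31, a call that was lost without D4_DUX replicate 3. Esam was tested mainly through its D4_DUX values, so no p is given for it. Summed FPKM was 13.9 to 14.6 in MEF, 21 to 21.6 in D4, 24.7 to 26.7 in D4_DUX and 39.8 to 40.9 in iPSC. Tek had a mean of 0.113 FPKM in MEF, was at 13.3, 13.9 and 13.3 FPKM in D4, and had means of 21.3 FPKM in D4_DUX and 2.02 FPKM in iPSC, so it was highest in D4_DUX as Ly6a and Ly6c1 were. Cldn5 and Sox17 were listed at 0 in all libraries of both day 4 groups, and Pecam1 had means of 0.098, 0.123, 0.0512 and 24.5 FPKM in MEF, D4, D4_DUX and iPSC.

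Pluripotency markers separated iPSC from the rest, which checks that label only for the presence of pluripotent cell RNA. Their summed FPKM was 1978 to 2178 in iPSC, 17.2 to 20.7 in MEF, 206 to 238 in D4 and 289 to 307 in D4_DUX. In iPSC against MEF 18 of 18 rose, with a median of 5.94, and without any 1 of the iPSC libraries 6 were called, since genes above 1 FPKM mainly in iPSC then missed the filter. In D4_DUX against D4 3 rose and 2 fell, among them Pou5f1 (0.49, limma adjusted p = 0.00027), Sox2 (0.49, 0.00185, and 0.0557 with a pseudocount of 0.1) and Klf4 (0.37, 0.0056), the genes that the 4F2A transgene also carries. Tbx3 fell by 0.29 (0.00439). Reads of the transgene and those of the native genes cannot be told apart in a gene table. The count of genes that fell was 1 without D4 replicate 2 or 3 and without any D4_DUX library. The iPSC libraries also held RNA of other listed markers. Fibroblast and mesenchymal progenitor markers summed to 878 to 1121 FPKM there, against 6285 to 6398 FPKM in MEF. Monocyte and macrophage markers summed to 179 to 220 FPKM, against 1720 to 1762 FPKM in MEF. Dcn had means of 211 FPKM in iPSC and 186 FPKM in MEF, and Lyz2 103 and 1303 FPKM. Whether the iPSC values of the Ly6 genes came from pluripotent cells alone was not tested.

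**Figure D4:**
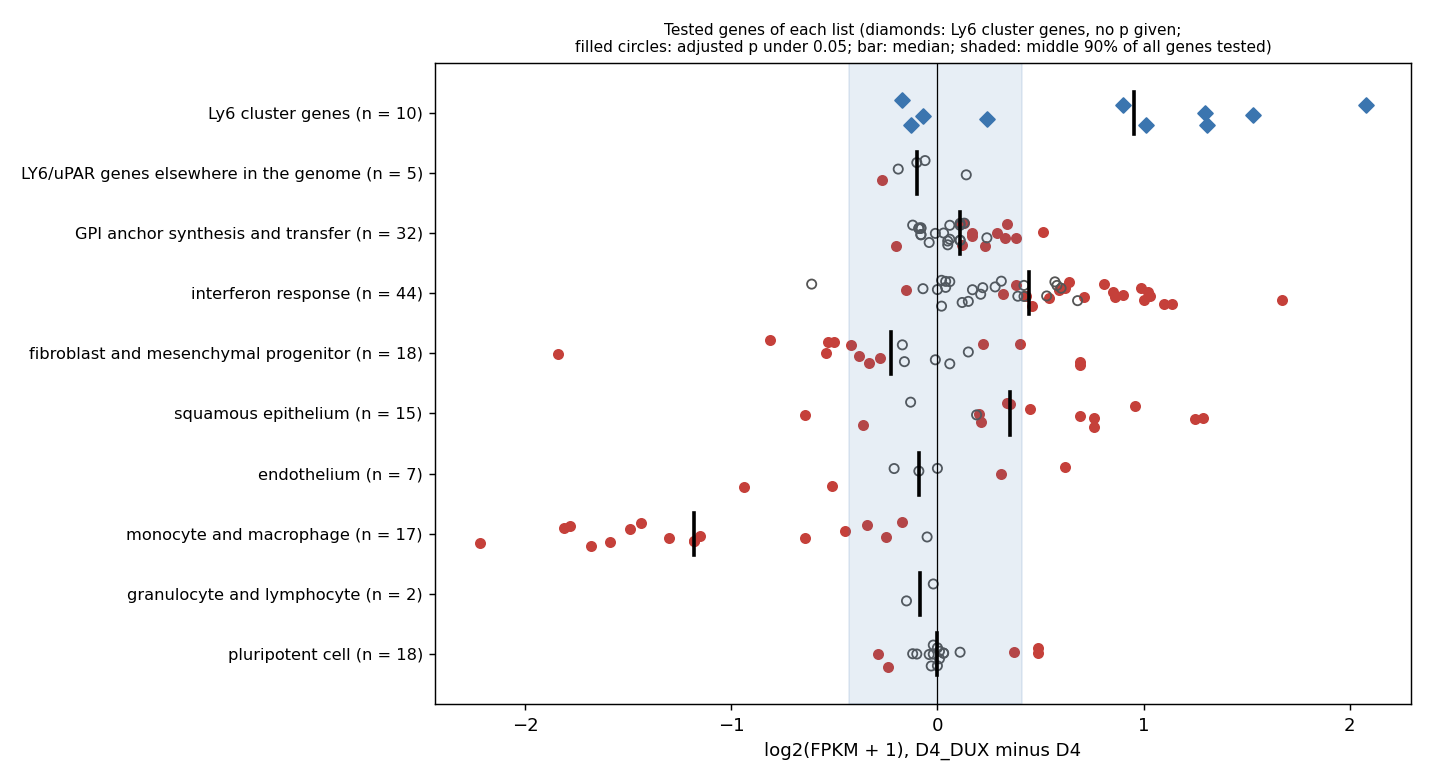
Difference in log2(FPKM + 1), D4_DUX minus D4, of each tested gene of the Ly6 cluster (diamonds, with no p given) and of the 9 lists, with filled circles for genes called by limma at an adjusted p under 0.05, open circles for the others, a bar at the median and shading over the middle 90% of all genes tested. The Ly6 cluster genes fall in 2 sets, 6 between 0.90 and 2.08 and 4 between -0.17 and 0.24, and monocyte and macrophage markers lie furthest to the left with a median of -1.18.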

How the data were processed

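Polyadenylated RNA was sequenced as paired reads of 150 bases from a stranded kit, per the labels' protocols, and the build was mm10, per the submitters' processing notes. The authors deposited 1 table in FPKM, with 1 column per library, and 0 columns were left unmapped. The aligner, counting tool, annotation and use of strand are stated in no source used here. Of 40384 gene IDs, 40149 (99.4%) matched GENCODE M21, from which symbols and coordinates were taken. FPKM times exon length gave each library's fragment step, of which 44.2 to 46.8% of low values were whole multiples (tolerance 0.01) and 72.5 to 74.2% multiples of 0.5, so no count test was run. Floors are the FPKM of 3 fragments and cover counting error only.

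The deposited FPKM were analysed as log2(FPKM + 1). A limma 3.58.1 model (R 4.3.3) with 4 group means and a variance trend was fitted to 12 libraries and 17114 genes (FPKM ≥ 1 in ≥ 3 libraries), with Benjamini-Hochberg adjustment over all of them and a threshold of 0.05. It was tested on simulated data. No pair of columns was identical (0 of 66). The members and the 9 lists were chosen with earlier results of these data known. Named were the 10 members, region genes with a mean of at least 1 FPKM in a group, up to 4 called genes per list with the smallest adjusted p in D4_DUX against D4, and the 5 genes most like Ly6a and Ly6c1, of which 1 is not reported here. Ly6g6e, Ly6g6d, Pigl, Ifit3, Isg15, Dpp4, Ivl, Krt5, Krt17, Trp63, Ccr2, Cldn5, Sox17, Pecam1 and the squamous genes listed at 0 were chosen after their values were seen. Alternatives changed the pseudocount, filter, scaling, trend, libraries fitted and replicate block, and left out each library.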

Additional observations from a re-analysis of the deposited data

How the results depend on the processing

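No gene of the cluster changed the sign of its difference between D4_DUX and D4 under any alternative run. Over these, the log2 difference ranged from 0.86 to 1.00 for Ly6a, 2.04 to 2.10 for Ly6c1, 1.23 to 1.88 for Ly6c2, 1.45 to 1.60 for Slurp1, 1.24 to 1.41 for Lypd2 and 0.87 to 1.61 for Psca. With each library left out in turn, cluster genes called numbered 6 to 7 for D4_DUX against D4, 9 to 9 for D4 against MEF, 3 to 4 for iPSC against MEF and 8 to 10 for iPSC against D4. All genes called then numbered 4721 to 5296, 9649 to 10193, 12313 to 13545 and 12328 to 13812. With a filter of FPKM at least 5, where fewer genes are tested, 9188 genes were called for iPSC against MEF, 9183 for iPSC against D4, and 6 cluster genes for iPSC against D4. That last count was also 6 with only the libraries of the 2 groups compared. In those libraries Ly6c2, Ly6d and Psca reached 1 FPKM in fewer than 3 and so were not tested. Among lists, genes called higher in D4_DUX than in D4 numbered 5 to 11 for the GPI anchor, 6 to 12 for squamous epithelium and 13 to 28 for interferon over the alternatives, and the Sox2 call was lost with a pseudocount of 0.1 (adjusted p = 0.0557). Same-numbered libraries correlated at 0.02, 0.05 and -0.02 in their deviations between D4_DUX and D4, and at -0.15, 0.06 and -0.12 between iPSC and MEF. No pairing by number was seen, but such values cannot exclude that same-numbered libraries share a culture or day. With the replicate block, 5677, 10381, 13974 and 13990 genes and 6, 9, 4 and 10 cluster genes were called in the same order. Depth limits Ly6k at day 4 and Ly6c2 in MEF and iPSC, and fragments shared with Ly6c1 limit Ly6c2 in every group.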
